A study of Mus musculus with 32 samples.

Results

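Promoter summits were taken from 32 lists of ATAC-seq peak summits of mouse limb buds. In each list the 10000 summits with the highest significance were kept, the mitochondrial genome was left out, and a summit was called a promoter summit when it lay within 1000 bp of the transcription start of a protein-coding gene on mm10. Of the 320000 summits kept, 210363 (65.7%) were promoter summits and 109637 lay elsewhere. The annotation held 26145 promoters of 21851 protein-coding genes, after starts up to 1000 bp apart had been joined, and 10983 of them (42.0%) had a summit in at least 1 library. ATAC-seq uses the Tn5 transposase, which cuts DNA that is not wrapped in nucleosomes, so a summit marks a place where many cells of the sample had accessible DNA.

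The libraries fell into 12 groups, with ages as labelled. The control and Etv2OE libraries are labelled E10.5, but by the study's methods the dams of this cross received doxycycline and were harvested at a later day, so the age of these libraries is uncertain. EYFP-positive cells came from hindlimbs (E10.5 HL EYFP+, 3 libraries) and forelimbs (E10.5 FL EYFP+, 3 libraries) of Etv2-EYFP transgenic embryos, sorted as negative for the vessel and blood surface proteins CD31, TIE2 and CD45, and a hindlimb and a forelimb library share each sample number in the labels, whose meaning is not stated. E10.5 Posterior and E10.5 Anterior (1 library each) were Shh-EGFP-positive posterior and anterior hindlimb cells of the Shh-EGFP line, and E9.5 HL (1 library) was wild-type hindlimb. E10.5 CKO (2 libraries) and E10.25 CKO (5 libraries) were posterior hindlimb of HoxB6-Cre Tg/+; Etv2 fl/- embryos, which lack the transcription factor gene Etv2 where the Cre is active, that is throughout the hindlimb precursor, and E10.25 WT (2 libraries) was wild-type posterior hindlimb. Etv2OE embryos 7, 9 and 10 carried HoxB6-Cre Tg/+, the doxycycline-inducible iHA-Etv2 transgene and ROSA26-STOP-rtTA-IRES-EGFP, and Etv2OE and control limb buds (embryos 1 to 4, which the labels give only as WT_Control) were each split into an anterior and a posterior library. The EYFP+ cells and the CKO posterior cells thus differed in sorting, in reporter, in Cre and in part of the limb as well as in Etv2, and these differences cannot be told apart.

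A promoter is the DNA around the transcription start, where general transcription factors and RNA polymerase II assemble within a stretch largely free of nucleosomes. Most mouse promoters, above all those of genes used in every cell, lie in CpG islands, which are rich in the CG pairs that are rare elsewhere and which stay unmethylated and open. Recurrent short words in such promoters are the GC box (GGGCGG, bound by SP and KLF factors), the CCAAT box (CCAAT or ATTGG, bound by NF-Y) and the ETS word CCGGAAG, while the TATA box (TATAAA) is more frequent at promoters of strongly regulated genes. ETV2 belongs to the ETS family, whose members share the core GGAA.

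The promoters below show what the results turn on: a repeat near the top of every list (ranks 4 to 18), open promoters with and without these words, and promoters called between CKO libraries and a group compared with them. Each sequence holds the 250 bases before the start on mm10 (genome sequence from RefSeq, GRCm38.p6), written 5′ to 3′ on the strand of the gene, and capitals mark matches, on either strand, of the GC box GGGCGG, the CCAAT box, the TATA box TATAAA, the ETS word CCGGAAG and the other ETS words AGGAAGT and AGGAAAT. The NRF1 word GCGCATGC (in 3.06% of all promoter windows), the YY1 word AAGATGGC (2.56%), the CREB word TGACGTCA (2.08%) and the E-box CACGTG (7.06%) were searched as well and had no match in the sequences shown.
Gm10722, chr9:3000672-3000921, plus strand: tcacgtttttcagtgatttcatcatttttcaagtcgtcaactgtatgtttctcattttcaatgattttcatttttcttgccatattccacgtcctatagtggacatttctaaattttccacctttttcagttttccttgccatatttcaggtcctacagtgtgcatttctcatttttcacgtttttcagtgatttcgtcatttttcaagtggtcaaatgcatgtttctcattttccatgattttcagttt
Evi5l, chr8:4166317-4166566, plus strand: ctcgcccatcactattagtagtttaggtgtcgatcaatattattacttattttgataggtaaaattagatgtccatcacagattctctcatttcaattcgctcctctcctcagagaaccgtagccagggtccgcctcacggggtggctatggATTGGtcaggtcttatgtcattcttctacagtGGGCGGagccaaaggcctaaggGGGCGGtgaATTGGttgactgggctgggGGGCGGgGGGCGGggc
Stt3a, chr9:36767680-36767929, minus strand: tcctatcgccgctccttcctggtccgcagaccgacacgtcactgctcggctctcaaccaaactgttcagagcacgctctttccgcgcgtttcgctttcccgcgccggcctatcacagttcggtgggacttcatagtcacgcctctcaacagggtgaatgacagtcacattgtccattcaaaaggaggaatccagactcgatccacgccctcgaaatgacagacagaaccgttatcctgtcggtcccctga
Olfml1, chr7:107567196-107567445, plus strand: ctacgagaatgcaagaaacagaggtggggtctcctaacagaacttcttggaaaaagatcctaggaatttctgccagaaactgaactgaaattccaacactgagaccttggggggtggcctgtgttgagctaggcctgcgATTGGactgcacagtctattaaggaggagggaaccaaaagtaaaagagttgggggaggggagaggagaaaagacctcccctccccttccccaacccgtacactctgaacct
Hoxb6, chr11:96298921-96299170, plus strand: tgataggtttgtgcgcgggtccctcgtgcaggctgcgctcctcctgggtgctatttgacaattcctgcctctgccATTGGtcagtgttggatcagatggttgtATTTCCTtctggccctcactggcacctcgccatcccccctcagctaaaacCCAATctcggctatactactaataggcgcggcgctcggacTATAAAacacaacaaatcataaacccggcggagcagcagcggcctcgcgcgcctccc
Mt1, chr8:94178832-94179081, plus strand: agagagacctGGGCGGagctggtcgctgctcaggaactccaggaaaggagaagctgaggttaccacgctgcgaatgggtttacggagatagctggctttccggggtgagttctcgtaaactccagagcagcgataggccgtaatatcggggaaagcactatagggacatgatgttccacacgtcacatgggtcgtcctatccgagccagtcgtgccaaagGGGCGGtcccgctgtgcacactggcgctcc
The Evi5l promoter, which was open in every library, held 4 GC boxes, at positions -66, -44, -16 and -9 counted from the start, and 2 CCAAT boxes, at -98 and -35. The Stt3a promoter, equally open, held none of the words, although it had 21 CG pairs, against 10 for Evi5l and 5 for the repeat at Gm10722.

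Promoters took most of the highest ranks. Of the summits with ranks 1 to 1000, a median of 79.8% over the 32 libraries were promoter summits (range 63.7 to 86.8%), and the median fell to 67.4% for ranks 2501 to 5000 and to 54.1% for ranks 5001 to 10000. In the 29 libraries with at least 20000 summits, ranks 10001 to 20000 held 33.5% (range 32.1 to 36.4%). The share of promoter summits therefore depends on how far down a list is read, which is why lists of equal length were compared.

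The mean share was highest in the E10.25 groups, although E10.5 Posterior exceeded the lowest E10.25 library. It was 78.5% ± 0.559 (SD, n = 2) in E10.25 WT and 75.6% ± 3.73 (SD, n = 5, range 71.1 to 79.7%) in E10.25 CKO, but 58.9% ± 0.219 (SD, n = 2) in E10.5 CKO, which is the same genotype and limb part. The ranges of the CKO groups at the 2 ages did not overlap, the difference was seen after the values were known and was not tested, and age and library series cannot be told apart. Among the other groups labelled E10.5 the share was 60.6% ± 3.93 (SD, n = 3) in HL EYFP+, 59.5% ± 2.23 (SD, n = 3) in FL EYFP+, 64.1% ± 1.14 and 63.7% ± 1.64 (SD, n = 4 each) in anterior and posterior control, and 62.4% ± 0.321 and 61.6% ± 1.66 (SD, n = 3 each) in anterior and posterior Etv2OE. The single libraries held 70.4% (E9.5 HL, 95% Wilson interval 69.5 to 71.3%), 73.4% (E10.5 Posterior, 72.6 to 74.3%) and 63.8% (E10.5 Anterior, 62.8 to 64.7%), where the intervals cover counting error alone.

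**Figure D1:**
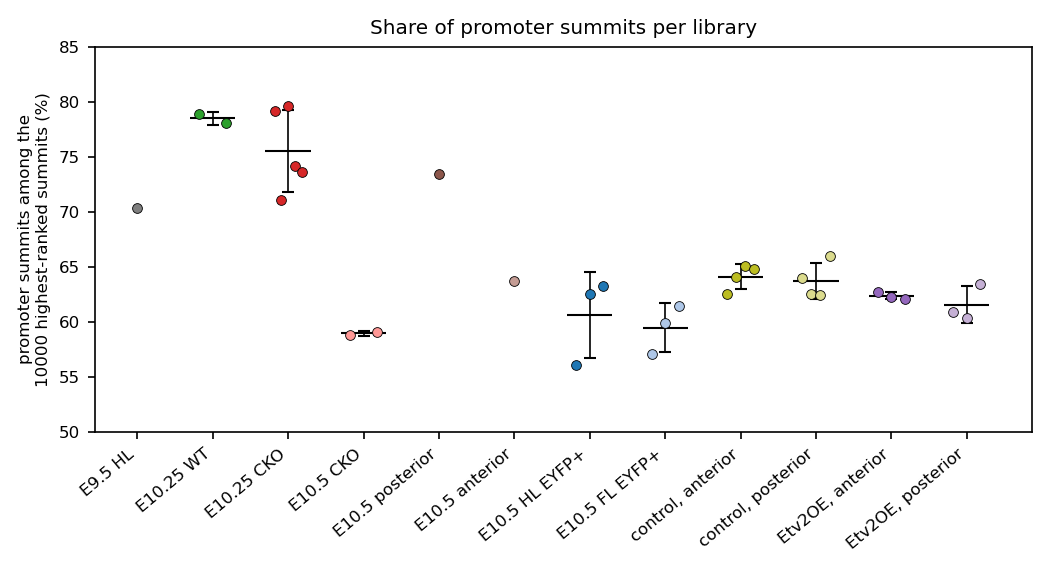
Share of promoter summits among the 10000 highest-ranked summits (y axis, percent) for every library (points) by group (x axis), with the mean (line) and SD (bars) where a group had more than 1 library. The 7 E10.25 libraries lie between 71.1 and 79.7%, and the E10.5 CKO and EYFP+ libraries between 56.1 and 63.3%.

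None of the 8 comparisons of shares had an adjusted p under 0.05, and none could have. The smallest p that the exact permutation test allows is 0.1 for HL EYFP+ with CKO, HL with FL EYFP+ and anterior with posterior Etv2OE. It is 0.0476 for E10.25 WT with CKO and 0.0286 for the others, and the adjustment over 8 comparisons keeps all of these above 0.05. Etv2OE shares were lower than control in the anterior part (difference -1.74 points, two-sided exact permutation p = 0.0857, adjusted 0.686) and in the posterior part (-2.17 points, exact permutation p = 0.171, adjusted 0.686), where the smallest p that 3 against 4 libraries allow is 0.0286. E10.25 WT exceeded E10.25 CKO by 2.93 points (exact permutation p = 0.429, adjusted 0.8), E10.5 HL EYFP+ exceeded E10.5 CKO by 1.69 points and FL EYFP+ by 1.16 points (exact permutation p = 0.6 each, adjusted 0.8), and anterior exceeded posterior by 0.365 points in control (p = 0.714) and 0.793 points in Etv2OE (p = 0.4, both exact permutation, adjusted 0.8). The Etv2OE effect differed between the parts by 0.428 points (exact permutation p = 0.8, adjusted 0.8). In whole lists both Etv2OE differences turned round, to 4.33 points in the anterior and 5.27 in the posterior part (exact permutation p = 0.0286 each, adjusted 0.0762). Etv2OE lists held 32670 to 47054 summits and control lists 40949 to 54679.

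Within the window around the start, summits sat just upstream of it. The median position was -51 to -40 bp in the E10.5 CKO, EYFP+ and Anterior, E9.5 HL, control and Etv2OE libraries, -31 bp in E10.5 Posterior and -24.5 to -16 bp in 6 of the 7 E10.25 libraries. E10.25 CKO replicate 4 stood apart at 8 bp, with 46.3% of its promoter summits upstream of the start, against 57.6 to 74.9% in all other libraries. Its list was also short (19737 summits), as were those of E10.25 CKO replicate 2 (15629) and E10.5 Anterior (13766).

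A large core of promoters was open everywhere. Of the 10983 promoters listed at least once, 2349 (21.4%, or 8.98% of all annotated) were among the top 10000 summits of all 32 libraries, 680 were missing from 1 library only, 6536 were in 16 or more and 754 were in a single library. These 2349 made up 29.5 to 42.1% of the promoters listed in a library. They had transcription starts on both strands more often than annotated promoters in general (16.1 against 4.37%), as at bidirectional gene pairs. On chromosome X, 27 of 353 listed promoters (7.65%) were in every library, against 2322 of 10626 (21.9%) on the autosomes.

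**Figure D2:**
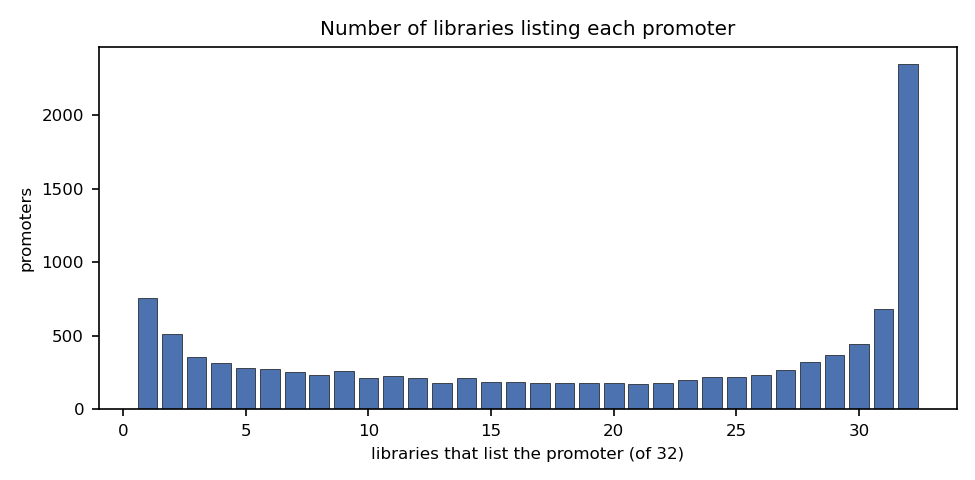
Number of promoters (y axis) by the number of libraries in which they were among the 10000 highest-ranked summits (x axis, 1 to 32). The distribution has 754 promoters at 1 library, its low part between, and 2349 promoters at 32 libraries.

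The very first ranks were held by predicted genes in repeats rather than by known promoters. Gm10800 at chr2:98667301 was rank 1 in 31 libraries and rank 2 in E10.5 FL EYFP+ replicate 3, and the next 10 (Gm10722, Gm10718, Gm17535, Gm10801, 3 promoters of Gm10717, Gm10719, Gm10721 and Gm11168) had median ranks of 9 to 48. They lie in a pair of blocks, from position 3000922 to 3034599 on chromosome 9 and from 98662237 to 98667301 on chromosome 2, and 24.0 to 100% of their 300-base window was masked as repeat in the genome sequence. How much of this signal comes from these promoters themselves was not tested. Of the 2349 promoters open everywhere, 24 were of predicted genes alone and 2325 remained without them.

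The named genes that came next were chosen after their ranks were seen. Hjurp, which encodes the chaperone that places the centromeric histone CENP-A, had a median rank of 68 (range 34 to 996). Evi5l, a Rab GTPase-activating protein, followed at 87.5 (range 64 to 575), and Stt3a, a catalytic subunit of the complex that adds sugar chains to proteins in the endoplasmic reticulum, at 96.5 (range 57 to 290). Stt3a stayed in the first 300 of every list, whereas Pja2, a ubiquitin ligase with a median rank of 95.5, fell to 3228 in E10.25 CKO replicate 4. The core ended where the lists did: Phf3 was at rank 9992 in anterior control embryo 1, Chtop at 9991 in E10.5 FL EYFP+ replicate 2 and Slc22a5 at 9991 in E10.5 HL EYFP+ replicate 1, while Lmbr1 just missed it, at 12376 in anterior control embryo 3 and between 2293 and 8056 in the other 31.

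Promoters open in more libraries had more CpG-rich windows. A window of 300 bases (250 before and 50 from the start on) was called CpG-rich with over 50% G and C and an observed to expected CG ratio above 0.6. Such windows made up 9.88% of promoters listed in no library, 62.4% of those in 1 to 15, 71.3% of those in 16 to 31 and 81.0% of those in all 32, against 35.0% of all annotated. GC boxes followed the same order (63.0, 66.9 and 73.0% of the listed classes, 38.4% of all). The CCAAT box did not separate listed from unlisted promoters, at 36.4% of those in no library and 29.6% of those in 1 to 15, but it reached 56.7% in those open everywhere (37.9% of all). The ETS word CCGGAAG was in 2.85% of unlisted promoters, 13.4, 19.2 and 19.8% of the listed classes and 8.79% of all. The other ETS words, AGGAAGT and AGGAAAT, went the other way (18.2% of unlisted promoters, 11.3% of those in all 32, 15.3% of all), as did the TATA box (20.0 and 4.04%, 14.2% of all). CCGGAAG holds a CG pair and AGGAAGT does not, and whether CG content alone gives this order was not tested.

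**Figure D3:**
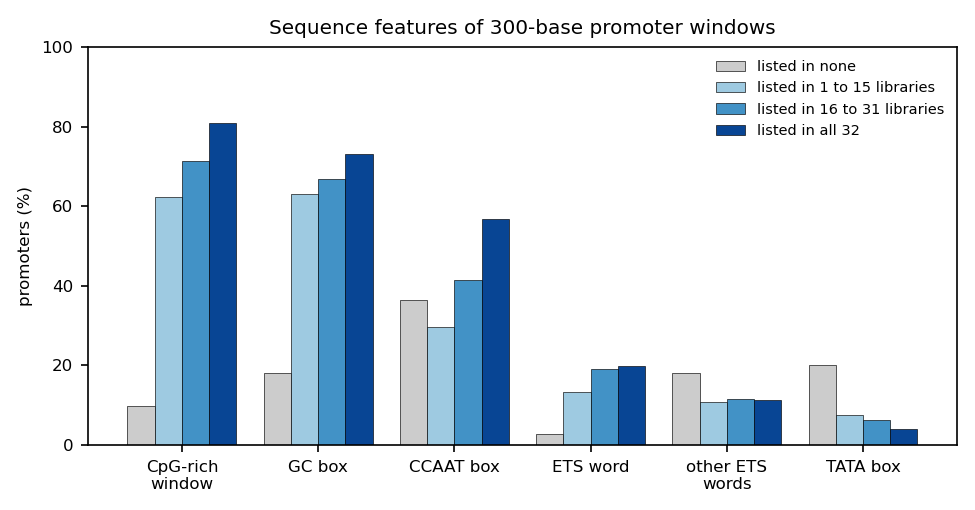
Share of promoters (y axis, percent) with a CpG-rich window, GC box, CCAAT box, ETS word CCGGAAG, other ETS words or TATA box in the 300-base window (x axis), in 4 classes by the number of libraries that list them (bars). CpG-rich windows rise from 9.88 to 81.0% and TATA boxes fall from 20.0 to 4.04% from the unlisted to the constant class.

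Genes for basic cell machinery were listed almost completely. Of 81 ribosomal protein genes 78 had a listed promoter and 15 had one in every library, and for mitochondrial ribosomal proteins these were 73 and 18 of 78, for proteasome subunits 42 and 9 of 48, for respiratory complex I 34 and 10 of 36, and for replication-dependent histones 59 and 13 of 67. Over all 21827 protein-coding gene symbols 11712 (53.7%) were listed and 2736 (12.5%) were in every library. C2H2 zinc finger genes named Zfp were also mostly listed (307 of 365, with 74 in every library). Of 1091 olfactory receptor genes, which are silent outside sensory neurons, 5 were listed and none in every library.

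Limb patterning genes had promoters that were open but seldom at the top. Of 36 limb transcription factor genes 24 were listed, and Etv5 (median rank 1657) was in all 32 libraries. Isl1, which starts the hindlimb bud, was in 31 and Gli3, the hedgehog transcription factor that shapes the anterior limb, in 30. Tbx4 and Pitx1, which set hindlimb identity, were among the top 10000 in 1 and 2 libraries, and Hand2, a posterior factor, in 2. In whole lists Pitx1 had a summit in 25 libraries and, of the forelimb libraries, in FL EYFP+ replicate 3 alone, where it was at rank 43148. The forelimb factor Tbx5 had a summit in HL EYFP+ replicate 3 and FL EYFP+ replicate 3 alone, at ranks 22575 and 27171. Of the 18 5′ Hox genes, which pattern the distal limb, 6 were listed in 2 to 6 libraries each.

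Signalling genes showed the same spread. Of 15 hedgehog pathway genes 11 were listed, with the co-receptor gene Gas1 in all 32 libraries (median rank 4571.5), the negative regulator Sufu in 31, the receptor component Smo in 22 and the receptor Ptch1 in 2. Shh itself was in no top 10000, and in whole lists it had a summit in E10.25 CKO replicates 1 (rank 31357) and 4 (16059), E10.5 Posterior (29541) and posterior control embryo 4 (51424). Of 18 FGF pathway genes 13 were listed, and the inhibitors Spry2 and Dusp6 were in all 32, whereas the ligand Fgf10 was in 21. Of 25 ETS factor genes 15 were listed and Gabpa, Etv5, Ets1, Elf1 and Elk1 were in every library. Etv2 was in no top 10000, and in whole lists it had a summit in HL EYFP+ replicate 3 (rank 22558), anterior Etv2OE embryo 10 (28563) and posterior Etv2OE embryos 9 (25303) and 7 (39504). These summits lay 940 to 988 bp after the start, at the edge of the 1000 bp window, so they do not show an open Etv2 start.

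Markers of other cell types were mostly outside the top 10000. Of 24 endothelial genes 4 were listed (Flt4 in 8 libraries, Egfl7 in 7, Kdr in 5 and Lmo2 in 1), and Cdh5, the defining junction protein of vessels, had no promoter summit in any whole list, whereas Kdr, the VEGF receptor, had one in all 32 whole lists, at ranks 5967 to 30949. Of 12 blood cell genes Runx1 was listed, in 12 libraries. Of 20 ectoderm genes 3 were listed (Perp, Tfap2c and Sp8) and of 14 muscle progenitor genes 5, among them Six4 in 31 and Eya1 in 16 libraries. Of 12 neural genes Elavl4 and Pou4f1 were listed, and 1 of the Elavl4 promoters was in all 32 libraries. An open promoter does not show that its gene was expressed.

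Promoters were then compared between groups by rank score, which runs from 1 for the first of the 10000 summits down to 0 for a promoter not among them. All promoters and other accessible intervals listed in at least 2 of the libraries compared were fitted together with limma, and p-values were adjusted by Benjamini-Hochberg over all of them. Differences below are given with their SE from that fit, and ranks are those in the whole list, where a rank beyond 10000 counts as a score of 0. Since a value of 0 means that a summit was not among the top 10000, a low score does not show that the promoter was closed.

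Between HL EYFP+ cells and CKO cells at E10.5, called differences took a smaller share of promoters than of other sites. Of 7027 promoters tested 87 were higher and 105 were lower in HL EYFP+ (limma, adjusted p under 0.05), against 2.99% higher and 7.3% lower of all 12471 features tested. In all, 2.73% of promoters and 20.1% of the other intervals were called. Of the called promoters, 29 had no top summit in either CKO library and 40 had none in the 3 HL EYFP+ libraries. The count rests on the CKO pair: without CKO replicate 1 or 2 it was 69 or 34, with 40 or 29 of the 192 still called, and without HL EYFP+ replicate 3 it was 339. Where a group is left with 1 library, that library is assumed to vary like the other groups, and fewer calls follow from the smaller group as well. Promoters listed in 1 group alone entered the test only through the group in which they were high, so their p-values add little to the ranks.

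Olfml1, a gene for a secreted olfactomedin-like protein, led the promoters that were higher in HL EYFP+. It was at ranks 450, 2038 and 1106 in HL EYFP+ and at 22270 and 18821 in CKO, a rank score difference of 0.88 ± 0.0582 (SE; limma, adjusted p = 1.87e-06). All libraries of the 4 control and Etv2OE groups also had it at ranks 245 to 3173, and of the E10.25 CKO libraries replicate 3 alone had it, at rank 17650. Groups without CKO also ranked it low, at 13175 and 8963 in E10.25 WT and 9116 in E10.5 Posterior. It was at 1072 in E10.5 Anterior, 2743 in E9.5 HL and 515, 518 and 1196 in FL EYFP+. The window shown above holds a CCAAT box and 3 CG pairs, few for an open promoter. The shared promoter of Tubgcp2, a gamma-tubulin complex component, and Zfp511 was at ranks 1909, 1120 and 1518 in HL EYFP+ and at 9924 and 11052 in CKO (difference 0.845 ± 0.086, adjusted p = 3.96e-05). Sec14l5, of the SEC14 lipid-transfer family, was at 970, 2573 and 1194 against 12619 and 15499 (0.842 ± 0.124, adjusted p = 0.000665).

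The other leading ones were the B3galt6/Sdf4 pair, with a galactosyltransferase of proteoglycan synthesis and a Golgi calcium-binding protein, and Derl3, which acts in removal of misfolded proteins from the endoplasmic reticulum. B3galt6/Sdf4 was at ranks 150, 84 and 1672 in HL EYFP+ and at 9168 and 8835 in CKO (difference 0.837 ± 0.126, adjusted p = 0.000793). Derl3 was at 1107, 1918 and 1256 against 13145 and 8783 (0.796 ± 0.134, adjusted p = 0.00187), and its call was lost without CKO replicate 1. For none of these 5 promoters did the ranks of the groups overlap, but this held for all 192 promoters called, so it adds no support.

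Among promoters that were higher in CKO, Gm10719 and Gm10720 are predicted genes in the repeat block on chromosome 9. Gm10719, at its promoter at position 3017408, was at ranks 54 and 61 in CKO and had no summit in any of the 6 EYFP+ libraries (difference -0.994 ± 0.239, adjusted p = 0.0183), although its promoter at 3020155 was listed in all 32. Gm10720 was at 67 and 77 and likewise unlisted in the EYFP+ libraries (-0.993 ± 0.238, adjusted p = 0.0183). Both were tested only because the 2 CKO libraries list them. Over all groups each was listed in 24 libraries, so these summits are not particular to CKO. In E10.25 WT Gm10719 was at 60 and 46 and Gm10720 at 67 and 57. E10.25 CKO replicate 4 had neither. Scn1a, a neuronal sodium channel gene, was at ranks 1211 and 868 in CKO and at 12336, 7783 and 17717 in HL EYFP+ (-0.822 ± 0.208, adjusted p = 0.0238), and that call was lost without either CKO library or without HL EYFP+ replicate 1. Hoxb6 and Mt1 completed the leading 5 and are described below.

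Among genes of the fixed lists, Gli2, a transcription factor of the hedgehog pathway, was not among the top 10000 of any HL EYFP+ library and was so in both CKO libraries (difference -0.433 ± 0.104, adjusted p = 0.0188), through which alone it was tested. It was 1 of 7 hedgehog promoters tested, whose median difference was 0.138, against 0.00123 over all promoters. No promoter of the 14 tested for limb transcription factors or of the 6 for the FGF pathway was called. One promoter of Elavl4, a neuronal RNA-binding protein, was lower in HL EYFP+ (-0.273 ± 0.0705, adjusted p = 0.0265), as were Psmd4 and Psme4 of 29 proteasome promoters and Rpl23a of 50 ribosomal ones.

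E10.25 WT and E10.25 CKO share age and limb part, but the CKO embryos also carry HoxB6-Cre. By the study's legend, fewer embryos were pooled for a CKO sample than for a wild-type one. Summits of the chromosome Y genes Uty and Eif2s3y were in both WT libraries and, of the CKO libraries, in replicate 3 alone. These differences and the loss of Etv2 cannot be told apart. Promoters differed mostly in one direction between the groups. Of 9107 promoters tested 115 were higher and 20 were lower in WT, against 1.45% higher and 0.311% lower of all 12865 features. Promoters were called in 1.48% and other intervals in 2.42% of cases. These calls rest on the 2 WT libraries: without replicate 1 the count was 23, with 16 of the 135 still called, and without replicate 2 it was 7, with 6 still called. Leaving out 1 CKO library gave 89 (without replicate 1) to 182 (without replicate 4).

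The promoters that led in WT were predicted genes on chromosome 4 that lie between positions 41941572 and 42439378. Gm21586 was at ranks 870 and 635 in WT and at 14030, 9480, 11321, 12461 and 19253 in CKO (difference 0.914 ± 0.0744, adjusted p = 5.18e-05). Gm20878 was at 885 and 1217 in WT and in no top 10000 of CKO (0.895 ± 0.102, adjusted p = 0.000951), and Gm21953 likewise, at 1447 and 992 (0.878 ± 0.0783, adjusted p = 0.00013). These promoters were at ranks 151, 214 and 154 in E10.5 Posterior and 329, 522 and 294 in E10.5 Anterior, and within the first 10000 in E9.5 HL and all 6 EYFP+ libraries. In all 14 control and Etv2OE libraries and in E10.5 CKO they were beyond rank 10000 or unlisted, and in E10.25 CKO Gm21586 in replicate 2 was the exception. The mouse line, the Etv2 genotype and the library series cannot be told apart in this split, and near-identical copies make the assignment of reads to these genes uncertain. Gm21586 kept its call in all 7 fits without 1 library.

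Named genes with known products that were higher in WT included Echs1, a mitochondrial fatty acid oxidation enzyme, at ranks 1989 and 3121 in WT and 10808, 10633, 9008, 18649 and 13545 in CKO (difference 0.725 ± 0.0904, adjusted p = 0.00156). Its call was lost without WT replicate 1. Trim12c, of the TRIM family of antiviral factors, was at 1729 and 1915 against 9103, 6356 and 9650 in CKO replicates 3, 4 and 5 and no summit in replicates 1 and 2 (0.72 ± 0.152, adjusted p = 0.0331), and this call was lost in 6 of 7 fits without 1 library. C2H2 zinc finger genes made up 10 of the 115, of 270 tested, with none lower, against 1.26% higher of all promoters tested, and their median difference was 0.0793, against 0.00602 over all promoters. Of these 10, Zfp965, Zfp966, Zfp968, Zfp969 and Zfp973 lie on chromosome 2, and Zfp68 had the largest difference (0.669 ± 0.12, adjusted p = 0.014). Near-identical copies among them make the assignment of reads uncertain.

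Promoters higher in CKO than in WT included Atg13/Harbi1, a pair with an autophagy-initiation gene, which was at ranks 10394 and 11076 in WT and 4110, 4582, 4244, 887 and 5081 in CKO (difference -0.622 ± 0.11, adjusted p = 0.0131). Bhlhe40, a basic helix-loop-helix repressor, was at 31156 and 18110 against 4713, 2702, 6213, 2774 and 3422 (-0.604 ± 0.0946, adjusted p = 0.00648). Its WT summits lay 773 and 792 bp after the start and its CKO summits at -462 to -204 bp, so these ranks compare summits at different places. Bzw1, a regulator of start codon choice in translation, was at 8604 and 8797 against 2005, 5031, 3064, 2027 and 2410 (-0.579 ± 0.101, adjusted p = 0.0119). The ranks of the groups did not overlap for any of the 3, as for all 135 promoters called, and each of the 3 calls needed both WT libraries. Disp1, which releases hedgehog ligands, was the sole hedgehog promoter called of 10, and it was higher in WT, at its start at 183221490 on chromosome 1 (0.506 ± 0.0527, adjusted p = 0.000421). None of 16 limb transcription factor and 13 FGF pathway promoters was called.

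Some calls were shared by the CKO comparisons at E10.5 and E10.25, and none had opposite directions. Higher in the group without CKO in both were Ccdc89, Dazl, Gm20878, Gm21586, Gm21953, Hist4h4, Lamtor4, S100a6, Sgms1 and Trim12c, which is 10 promoters, 11.5% of the 87 and 8.7% of the 115. Higher in CKO in both were Bhlhe40, Hoxb6, Kctd15 and Mt1, which is 3.81% of the 105 and 20.0% of the 20. Of all promoters tested at E10.25, 1.26% were called higher and 0.22% lower in WT. Gm20878, Gm21586 and Gm21953 lie in the same stretch of chromosome 4, so they are not separate cases. The comparisons share no library, but they share the estimate of spread.

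**Figure D4:**
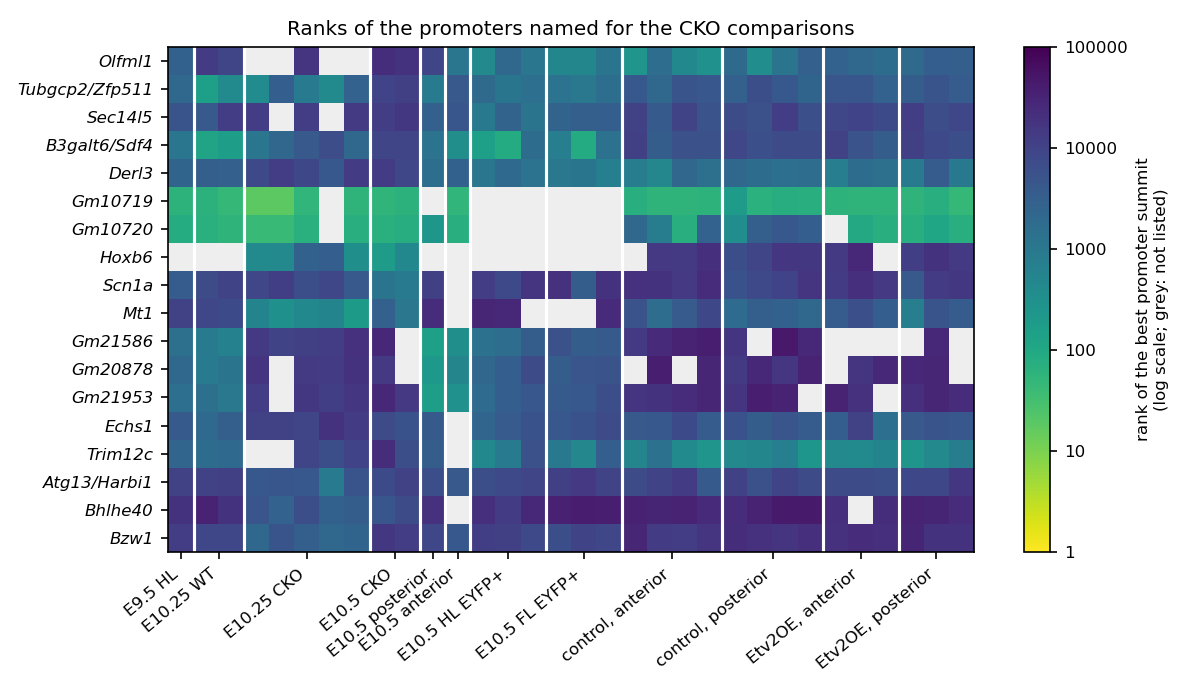
Rank of the best promoter summit (colour, log scale, grey where the list has none) of the 18 promoters named for the CKO comparisons (rows) in all 32 libraries (columns, ordered by group). Hoxb6 and Mt1 are at low rank numbers in the CKO libraries, and Gm21586, Gm20878 and Gm21953 in the wild-type, EYFP+, Posterior and Anterior libraries.

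Hoxb6, a homeobox gene of the trunk and hindbrain axis, had a promoter summit in every CKO library, at ranks 410, 434, 2853, 3273 and 324 at E10.25 and 175 and 457 at E10.5. It had none in any list, read to its end, of E9.5 HL, E10.25 WT, E10.5 Posterior, E10.5 Anterior or EYFP+ cells, which are 11 libraries. The difference was -0.854 ± 0.0833 for E10.25 WT minus CKO (adjusted p = 0.000282) and -0.969 ± 0.0892 for HL EYFP+ minus CKO (adjusted p = 1.87e-05), and in both comparisons the promoter was tested only through the CKO libraries, in which it is high. Of the 14 control and Etv2OE libraries 12 also had the summit, at ranks from 6408 to 28379. The summit lay 352 to 160 bp before the start at 96299171 on chromosome 11, in an intron of the longer annotated Hoxb6 transcript and over or just before the window shown above, with its pair of CCAAT boxes, ETS word ATTTCCT and TATA box.

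Mt1, a metallothionein that binds zinc and copper, was at ranks 566, 315, 474, 564 and 192 in E10.25 CKO and 2875 and 1039 in E10.5 CKO. In E10.25 WT it was at 8813 and 7379, in HL EYFP+ at 28694 and 26813 with no summit in replicate 3, and in control and Etv2OE at 739 to 8310. The difference was -0.767 ± 0.0599 for E10.25 WT minus CKO (adjusted p = 4.53e-05) and -0.804 ± 0.0623 for HL EYFP+ minus CKO (adjusted p = 5.07e-06). The summits were not at the same place. In the 7 CKO libraries the best summit lay 543 to 857 bp after the start (median 680 bp), and in the 14 control and Etv2OE libraries 477 to 912 bp after it (median 755 bp), whereas in the 7 other libraries with a summit it lay between -66 and 54 bp. With summits counted only within 500 bp of a start, the E10.25 difference turned to 0.191 (adjusted p = 0.0981). Between the start at 94179082 on chromosome 8 and the end of the gene at 94180327, the CKO summits lay from 94179625 to 94179939. They fell within an annotated exon from 94179241 to 94180325, which also covers the stretches between shorter annotated exons, such as that from 94179823 to 94179888.

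By the genotypes given, the CKO and Etv2OE embryos carry the HoxB6-Cre transgene, in which Hoxb6 regulatory DNA drives the Cre, and the labels do not give the transgenes of the control embryos. The study describes controls of this cross in one place as embryos without HoxB6-Cre and in another as littermates without iHA-Etv2 or the rtTA transgene, so whether these control libraries carry the Cre is not settled. In the CKO comparisons the transgene and the loss of Etv2 go together at Hoxb6 and Mt1. The Etv2OE embryos carry the Cre, and their given genotype holds no deleted Etv2 allele. All their libraries had the Mt1 summit 543 to 891 bp after the start. All but that of anterior embryo 9 had the Hoxb6 summit, at ranks 11771 to 28379. The cause of the summits was not tested.

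**Figure D5:**
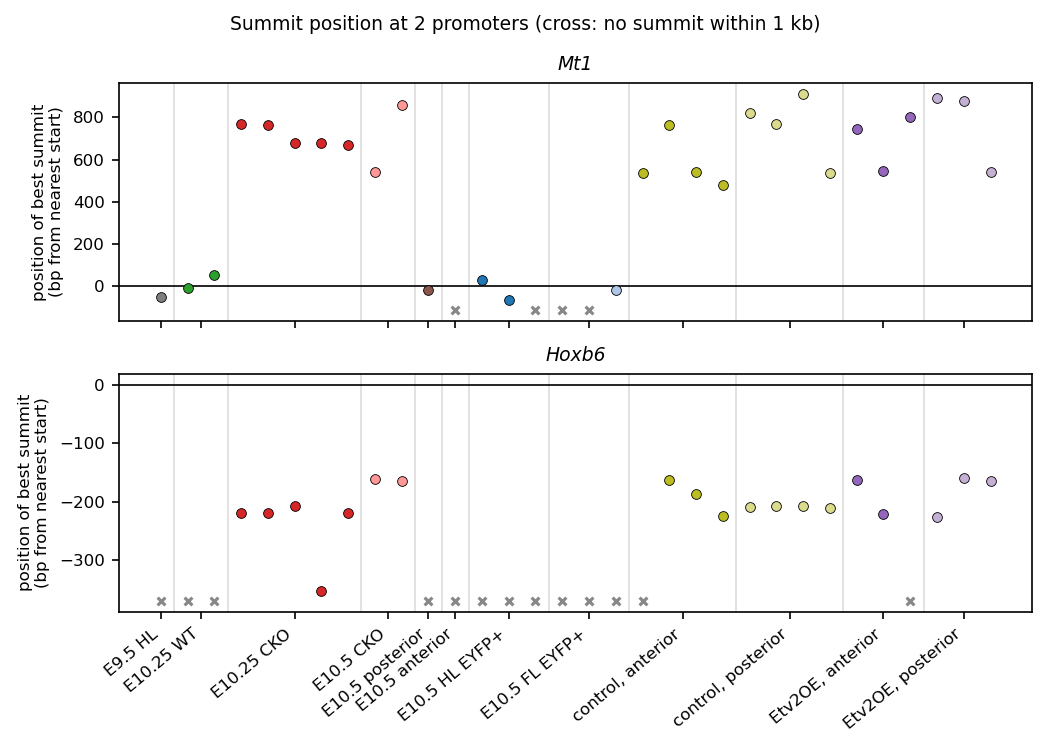
Distance of the best summit from the transcription start (y axis, bp) at the Mt1 (top) and Hoxb6 (bottom) promoters for every library (points, coloured and ordered by group on the x axis), with crosses for libraries without a summit there. Mt1 summits lie 477 to 912 bp after the start in the CKO, control and Etv2OE libraries and between -66 and 54 bp in the others.

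Forelimb and hindlimb EYFP+ cells differed at few promoters. Of 7402 tested 4 were higher and 5 were lower in HL EYFP+ (limma, adjusted p under 0.05), against 0.39% higher and 0.54% lower of all 13337 features. With the shared sample number as a block, 0 promoters were called (limma, adjusted p of the 9 from 0.586 to 0.652), and the count was 121 without FL EYFP+ replicate 3 and 36 without HL EYFP+ replicate 3. Fam69a was at ranks 5720, 4266 and 5433 in HL and 10178, 14008 and 18169 in FL (difference 0.486 ± 0.0852, adjusted p = 0.0159). Fndc3c1 (0.515 ± 0.108, adjusted p = 0.0461) and the ubiquitin ligase gene Ube4b (0.5 ± 0.104, adjusted p = 0.0452) were also higher in HL.

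Higher in FL was Meox2, a mesodermal homeobox factor of limb muscle. It was at ranks 4043, 6127 and 3015 in FL and at 9855, 12769 and 12672 in HL (HL minus FL -0.556 ± 0.0871, adjusted p = 0.00728). Every FL library ranked above every HL library, but the groups were likewise apart at all 9 promoters called, so this adds no support. The translation factor gene Eif2d (-0.527 ± 0.1, adjusted p = 0.0261) and Cdc42ep4 (-0.381 ± 0.0576, adjusted p = 0.00562) also ranked higher in FL.

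Etv2 overexpression was set against control in each part of the limb bud. In the anterior part 0 of 7554 promoters were called in either direction (limma, 491 at an unadjusted p under 0.05), against 0.0077% higher and 0.0154% lower of all 12994 features. Atxn7, a subunit of the SAGA coactivator, had a difference of -0.37 ± 0.071 (adjusted p = 0.162). In the posterior part 2 of 7481 promoters were higher and 3 were lower in Etv2OE, against 0.0617% higher and 0.0386% lower of all 12964 features.

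The shared promoter of Fam53a and Gm9903 was at ranks 3931, 2813 and 3280 in posterior Etv2OE embryos 7, 9 and 10 and at 8380, 9315, 9566 and 6564 in control embryos 1 to 4 (difference 0.511 ± 0.0715, adjusted p = 0.0291). Enpp2, which encodes the lipid-signalling enzyme autotaxin, was at 5565, 7889 and 7510 against 12029, 11069, 10253 and 14670 (0.301 ± 0.0476, adjusted p = 0.0492). Ankrd45 was lower in Etv2OE, beyond rank 10000 in its 3 libraries and at 5359, 5884, 6659 and 4769 in control (-0.433 ± 0.0514, adjusted p = 0.0171), as were Uspl1, a SUMO protease gene (-0.417 ± 0.0669, adjusted p = 0.0492), and Nsun4, a methyltransferase gene of mitochondrial ribosomes (-0.332 ± 0.0445, adjusted p = 0.0291). Of these 5 calls Ankrd45 alone held in all fits without 1 library, and none of the 5 was called with the compared groups alone, with 5000 summits or in whole lists, while the count was 16, 19 and 16 without embryo 7, 9 or 10, and in the anterior part it was 14, 8 and 10. The Etv2OE effect differed between anterior and posterior parts at 0 of 8292 promoters (limma, 403 at an unadjusted p under 0.05), against 0% of all 15906 features in each direction. The smallest p-values there belonged to Nsun4 (0.348 ± 0.0613, adjusted p = 0.31) and Abi1 (-0.805 ± 0.147, adjusted p = 0.31).

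Anterior and posterior parts of 1 limb bud also differed at few promoters. In control 2 of 7684 were higher and 4 were lower in the anterior part, against 0.288% higher and 0.414% lower of all 13537 features, and in Etv2OE 3 and 9 of 7249, against 0.3% higher and 0.419% lower of all 12654. With the embryo as a block, 0 were called in either (limma, lowest adjusted p of the named ones 0.0772 in control and 0.126 in Etv2OE). In control, Bmp2k, a kinase gene, was at ranks 6716, 4492, 5066 and 4173 in anterior and 8369, 12332, 9922 and 10212 in posterior libraries of embryos 1 to 4 (difference 0.446 ± 0.0686, adjusted p = 0.00921). Higher in the posterior part of control were Ankrd45 (-0.341 ± 0.0478, adjusted p = 0.00565), Dpm2 (-0.409 ± 0.082, adjusted p = 0.0487), Zfp93 (-0.319 ± 0.0602, adjusted p = 0.0352) and Mob4 (-0.248 ± 0.0471, adjusted p = 0.0364). Ranks did not overlap between the parts at any of the 6 promoters called in control, as at every promoter called in any comparison, so this adds no support.

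In Etv2OE the leading anterior promoter was that of Acvr1b, an activin receptor gene, at ranks 4529, 3561 and 4059 in anterior and 13405, 15523 and 13899 in posterior libraries of embryos 7, 9 and 10 (difference 0.595 ± 0.117, adjusted p = 0.0439). Tcf3, a basic helix-loop-helix factor gene (0.376 ± 0.0694, adjusted p = 0.032), and Nsun4 (0.351 ± 0.0479, adjusted p = 0.0081) followed. Isl1 was the 1 limb transcription factor promoter called of 10, at ranks 6078, 4401 and 7344 in anterior and 1636, 1769 and 1799 in posterior Etv2OE libraries (-0.421 ± 0.0836, adjusted p = 0.0465). In control it was at 3680, 5523, 6108 and 5776 in anterior and 3688, 3740, 2189 and 1899 in posterior libraries, which overlap, and no call was made. Shroom3, which drives apical constriction of epithelial cells (-0.522 ± 0.0973, adjusted p = 0.0336), Serping1, an inhibitor of complement (-0.468 ± 0.0911, adjusted p = 0.0427), Ctsc, a lysosomal protease (-0.426 ± 0.0822, adjusted p = 0.041), and Oxr1, a protein of oxidative stress defence (-0.422 ± 0.0842, adjusted p = 0.047), were higher in the posterior part as well. Except for Nsun4, the calls of these 8 named promoters were each lost in 2 to 6 of 6 fits without 1 library, although 21 to 28 promoters were called in those fits, against 12 with all 6 libraries.

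The E10.25 libraries were also set against the CKO and EYFP+ libraries of E10.5, without the other groups. Of the 10983 promoters listed at least once, 69 were among the top 10000 in all 7 libraries of E10.25. These were missing from all 8 CKO and EYFP+ libraries of E10.5, and 1 promoter, Cfap161, showed the reverse. The E10.25 lists held 7043 to 7953 promoters each and the other 8 lists 5586 to 6309, which favours the larger count in lists of equal length. How many other intervals split in this way was not counted. The set of 69 was formed after the shares had been seen, and stage, sorting and library series cannot be told apart in it. It was led by the cell cycle inhibitor gene Cdkn2b (median rank 2817 at E10.25), the splicing factor gene Prpf39 (3488), the ETS factor gene Ets2 (3809), the redox enzyme gene Srxn1 (4252) and Runx1t1 (4284). Many of the 69 were also in the top 10000 of libraries left out of this split, most of which are labelled E10.5. Cdkn2b and Prpf39 were in 3 of them, Ets2 in 1, and Srxn1 and Runx1t1 in 4. The range was from 0 (such as Eri1) to 14 (Zfp451). CpG-rich windows made up 92.8% of the 69, against 62.4% of promoters listed in 1 to 15 libraries and 81.0% of those in all 32, and CCAAT boxes 24.6%, against 29.6 and 56.7% in these classes and 37.9% of all promoters.

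Promoters of chromosome Y served as a check on the embryos. In whole lists, promoter summits of Ddx3y, Uty, Eif2s3y and Kdm5d were in both libraries of control embryos 2, 3 and 4, and none of the 4 was in a library of control embryo 1 or of Etv2OE embryos 7, 9 and 10. Anterior and posterior libraries of an embryo thus matched in all 7 embryos, and chromosome Y was present in 3 of 4 control and none of 3 Etv2OE embryos. The EYFP+ libraries with the sample number of replicate 3 did not match, since the FL library had summits of Uty (rank 24565) and Eif2s3y (32395) and the HL library had none of the 4. Of the E10.25 CKO libraries replicate 3 had these summits and the other 4 had none, while both E10.25 WT libraries had those of Ddx3y, Uty and Eif2s3y and neither E10.5 CKO library had any. Without chromosomes X and Y, 192 promoters were called between HL EYFP+ and CKO at E10.5, 122 between WT and CKO at E10.25 and 0 and 4 for anterior and posterior Etv2OE against control. Gm47283, also on chromosome Y, was listed in all 32 libraries, including those without the other 4.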

How the data were processed

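ATAC-seq was measured in 32 mouse limb bud libraries. The authors aligned reads to mm10 with Bowtie2 2.2.4, removed duplicates with Picard, shifted read ends for the Tn5 cut and ran MACS2 (version: not given in the sources used here) on every library by itself. Deposited lists hold 1 summit per line with the −log10 of its q-value, which the authors' peak caller gave, and no read counts, so depth is unknown and no interval or limit that needs it is given. The −log10 values depend on depth and served only to rank summits within a list. Lists held 13766 to 54679 summits.

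Of each list the 10000 highest-ranked summits were used, without the mitochondrial genome. Protein-coding starts came from the GENCODE M21 basic annotation of GRCm38 (45065 transcripts), and a summit belonged to the promoter of the nearest start within 1000 bp. Other summits were gathered in 200-bp intervals listed in at least 2 libraries. Rank scores fell in equal steps from 1 at the first rank to 0 below the last rank used. Scores of promoters and intervals listed in at least 2 compared libraries were fitted with limma 3.58.1 (R 4.3.3), on 15 libraries for the E10.25 and E10.5 groups and 14 for the overexpression experiment, at an adjusted p of 0.05. Shares were compared by a two-sided exact permutation test, adjusted over 8 comparisons. Tables were made with Python 3.11.15. The limma step alone was tested on simulated data, for some of the comparisons. The simulated scores had normal noise and, unlike rank scores, no bounds at 0 and 1.

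Groups and replicate numbers followed the labels. Nothing says that replicates of the pooled groups were separate litters, so p-values measure the spread between these libraries. The labels give forelimb and hindlimb EYFP+ libraries shared sample numbers, and the anterior and posterior libraries of a limb bud shared embryo numbers. Deviations of rank scores from group means correlated at 0.365 to 0.729 between EYFP+ libraries of 1 number and at 0.007 to 0.058 between those of 1 embryo, and fits with this block were an alternative. Others were 5000 summits or whole lists, 500 bp, no filter, the compared groups alone, no chromosomes X and Y, no predicted genes and each library left out.

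Named promoters were the 5 with the largest difference among those called in each direction of a comparison, the 2 with the smallest p where none was called, the 10 with the best median rank and the 3 with the worst rank among those in every library, members of the gene lists, and Lmbr1, Etv2, Shh and chromosome Y genes. Xist, which is not protein-coding, has no promoter here. Some promoters that meet these rules are not reported here. The promoters, lists and tests were chosen with earlier results of these data known.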

Additional observations from a re-analysis of the deposited data

Results flagged for a closer look

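Of 34 groups of 4 to 10 libraries examined for a library far from the others, 7 had one. The chance rate of about 1 in 20 does not hold for rank scores, where a single value above 0 among values of 0 is always flagged. The position and upstream-share flags describe the same library, so the count of 7 cannot be read against chance. In E10.25 CKO replicate 4 the median summit position was 8 bp, against -24.5 to -19 bp in the other 4 libraries, and 46.3% of its promoter summits lay upstream of the start, against 59.0 to 63.1%. The rank score of Trim12c in this library was 0.3645, against 0 to 0.0898 in the other E10.25 CKO libraries, and that of Atg13/Harbi1 was 0.9114, against 0.492 to 0.5891. In E10.25 CKO replicate 2 Gm21586 had a score of 0.0521 and in replicate 3 Echs1 had 0.0993, each against 0 in the other 4. In posterior control embryo 1 Bmp2k had a score of 0.1632, against 0 to 0.0079 in the other 3. The part of library quality in these values was not tested.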

How the results depend on the processing

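No difference in promoter share had an adjusted p under 0.05 in any alternative (lowest 0.0762, exact permutation test), which shows no stability, since the smallest p allowed is 0.1 in 3 comparisons and 0.125 or 0.25 in the paired ones. In whole lists, which differ in length, the sign turned for HL EYFP+ minus CKO (-2.73 points), E10.25 WT minus CKO (-10.3), Etv2OE minus control in the anterior (4.33) and posterior part (5.27) and the difference between these effects (-0.943), and with 5000 summits for HL minus FL EYFP+ (-0.547). Without 1 library, shares ranged from 0.375 to 3.95 points for HL EYFP+ minus CKO, 1.82 to 3.96 for E10.25 WT minus CKO, -0.15 to 3.43 for HL minus FL, -2.27 to -1.42 and -3.11 to -1.43 for Etv2OE minus control, -0.0575 to 1.11 and 0.18 to 1.73 for anterior minus posterior in control and Etv2OE, and -0.177 to 1.51 for the difference of effects. The sign turned without HL EYFP+ replicate 3 (-0.15) or FL EYFP+ replicate 1 (-0.0367), without posterior control embryo 2 (-0.0308) or 3 (-0.0575), and for the difference of effects without the anterior or posterior library of Etv2OE embryo 7 (-0.15) or 10 (-0.075) or of control embryo 1 (-0.177) or 4 (-0.0867). With the replicate block (sample number or embryo), the paired shares differed by 1.16 (exact permutation p = 0.5), 0.365 (p = 0.75) and 0.793 points (p = 0.5).

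Counts of called promoters moved more. Fitted with the compared groups alone, they were 40 for HL EYFP+ minus CKO, 0 for HL minus FL, 2 for posterior Etv2OE (none of them among the 5) and 0 for anterior minus posterior in Etv2OE. With 5000 summits they were 98, 2 and 0 for the first 3 of these, 4 for anterior Etv2OE and 3 for anterior minus posterior in control. In whole lists they were 28 for HL minus FL, 19 and 66 for anterior and posterior Etv2OE, 91 and 56 for anterior minus posterior in control and Etv2OE and 1 for the difference of effects. Without a filter they were 14 for HL minus FL and 7 for anterior minus posterior in Etv2OE, and within 500 bp 3 for posterior Etv2OE. With the replicate block, no promoter was called for HL minus FL or anterior minus posterior (0 each, limma), and the difference of effects stayed at 0. Without 1 library the counts ranged from 34 to 339 (HL EYFP+ minus CKO), 7 to 182 (E10.25 WT minus CKO), 8 to 121 (HL minus FL), 0 to 14 and 2 to 19 (anterior and posterior Etv2OE), 3 to 9 and 21 to 28 (anterior minus posterior in control and Etv2OE) and 0 to 4 (difference of effects). For HL minus FL the count was 36 without HL EYFP+ replicate 3, for anterior Etv2OE 14, 8 and 10 without embryo 7, 9 or 10, and for posterior Etv2OE 16, 19 and 16 without them. Of the called promoters, those still called in all fits without 1 library were 15 of 192 for HL EYFP+ minus CKO and 5 of 135 for E10.25 WT minus CKO, and 3 and 2 under every alternative. Promoters in every library numbered 798 with 5000 summits, 6060 in whole lists and 2349 to 2441 without 1 library. Of the values of named promoters under the alternatives, 443 kept direction and side of the threshold, 215 lost the call and 1 turned, that of Mt1 in E10.25 WT minus CKO within 500 bp (0.191, adjusted p = 0.0981). Leaving out predicted genes, chosen after the data were seen, gave 187 and 126 calls in the CKO comparisons and 2325 promoters in every library. The cause of these changes was not tested. A q-value depends on depth, which the lists do not give.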
